A study of Mus musculus with 8 samples.

Results

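The 10 genes described here, of 18939 in the table of counts, are *Ttr*, *Folr1*, *Kl*, *Clic6*, *Aqp1*, *Otx2*, *Kcnj13*, *Enpp2*, *Cldn2* and *Calml4*. The first 9 are known genes of the choroid plexus epithelium and *Calml4* encodes a calmodulin-like protein. All 10 were found, each as 1 row, the transcript with the highest total count. They were chosen by their measured values in these same libraries, since their difference between morphine and control and their variation between libraries were known beforehand. Their levels and their fold changes between the conditions are therefore given as a description, without a test.

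The libraries came from mice of genotype OPRM1cre X EGFP-L10a on a C57Bl/6J background, 8 to 12 weeks old. In these mice Cre is made under control of the mu-opioid receptor gene (*Oprm1*) and switches on a ribosomal protein tagged with EGFP, which allows ribosome-bound RNA to be pulled down with antibodies (translating ribosome affinity purification, TRAP). The morphine group (4 libraries) drank morphine in 0.2% saccharin, starting at 0.3 mg/ml and ending at 0.5 mg/ml, for 11 days, and the control group (4 libraries) drank saccharin by the methods and drinking water by the labels. Each library pooled 2 gross dissections aimed at the paraventricular thalamus, by the protocol from mice of 1 sex, and by the labels each group had 2 male libraries (control replicates 1 and 2, morphine replicates 3 and 4) and 2 female libraries (control replicates 5 and 6, morphine replicates 7 and 8). Control replicate 5, labelled female, had counts of 4 Y-linked genes, amounting to 28.7% to 35.8% of the male mean, which goes against a pool of females alone. Total counts were between 31151103 and 47582947 per library.

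The choroid plexus is a sheet of secretory epithelium that hangs in the brain ventricles and makes cerebrospinal fluid. Its cells secrete carrier proteins, move ions, water and vitamins from blood to fluid, and are joined by tight junctions. The paraventricular thalamus lies directly below the roof of the third ventricle, which carries choroid plexus. The labels name neurons as the purified cells.

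The 10 genes lie on 10 different chromosomes (RefSeq coordinates, GRCm38.p6), so none shares a locus with another. *Calml4* is at chr9:62857472-62875921, *Folr1* at chr7:101858331-101870788, *Kl* at chr5:150952607-150993817, *Clic6* at chr16:92498147-92541241, *Aqp1* at chr6:55336299-55348555 and *Otx2* at chr14:48656781-48667644. *Kcnj13* is at chr1:87384577-87394729, *Enpp2* at chr15:54838901-54952789 and *Cldn2* at chrX:139800808-139811386, and *Ttr* is placed with its values below. *Kcnj13* lies within the protein-coding gene *Gigyf2*, *Ttr* and *Folr1* overlap long noncoding genes and *Calml4* overlaps a pseudogene. It is not stated whether the counts used the strand, so reads of the overlapping genes cannot be told apart.

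The 250 bases before the transcription start were read for the 6 members with an entry among the RefSeq promoters (*Aqp1*, *Calml4*, *Cldn2*, *Kcnj13*, *Kl* and *Otx2*, 9 windows). Of these windows 4 are shown, 1 for each member other than *Otx2* whose window held no annotated exon, to set beside each other genes whose levels varied together, 5′ to 3′ on the strand of the gene and ending at the base before the start, with matches to the searched motifs in capitals.
Kcnj13 chr1:87394730-87394979 (minus strand): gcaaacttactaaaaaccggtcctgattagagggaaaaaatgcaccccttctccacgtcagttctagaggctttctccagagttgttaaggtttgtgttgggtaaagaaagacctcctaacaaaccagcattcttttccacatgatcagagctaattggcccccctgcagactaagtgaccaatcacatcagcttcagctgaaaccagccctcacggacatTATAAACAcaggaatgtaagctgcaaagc
Cldn2 chrX:139800558-139800807 (plus strand): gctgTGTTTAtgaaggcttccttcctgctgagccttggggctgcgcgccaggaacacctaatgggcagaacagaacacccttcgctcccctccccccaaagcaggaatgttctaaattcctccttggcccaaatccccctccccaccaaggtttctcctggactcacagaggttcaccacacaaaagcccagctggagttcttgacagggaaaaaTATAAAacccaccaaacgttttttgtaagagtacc
Aqp1 chr6:55336049-55336298 (plus strand): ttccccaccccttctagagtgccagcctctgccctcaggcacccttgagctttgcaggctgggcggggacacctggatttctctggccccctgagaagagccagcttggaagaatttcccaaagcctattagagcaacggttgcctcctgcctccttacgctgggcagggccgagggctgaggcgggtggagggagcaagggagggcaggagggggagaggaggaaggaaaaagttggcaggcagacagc
Kl chr5:150952357-150952606 (plus strand): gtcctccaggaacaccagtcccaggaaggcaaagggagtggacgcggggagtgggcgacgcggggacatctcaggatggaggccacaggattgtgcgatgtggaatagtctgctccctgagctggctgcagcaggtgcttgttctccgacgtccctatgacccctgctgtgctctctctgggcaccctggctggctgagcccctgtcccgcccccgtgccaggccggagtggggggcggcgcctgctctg
The motifs searched, on both strands, were TATAAA (the TATA box), TAAACA (the core bound by forkhead factors) and GGATTA (the core bound by OTX proteins). *Kcnj13* held TATAAA starting 29 bases and TAAACA starting 27 bases before the start, and these matches overlap. *Cldn2* held TATAAA starting 35 bases before the start and TAAACA on the opposite strand 246 bases before it. The windows of *Aqp1*, *Kl* and *Calml4* held none of the 3 motifs, and of the 4 windows of *Otx2* 1 held GGATTA and another TATAAA. Among 32851 promoter windows of the same length, 12.4% held TATAAA, 12.03% TAAACA and 6.25% GGATTA. GC content was 45.2% for *Kcnj13*, 52.0% for *Cldn2*, 57.6% for *Calml4*, 62.0% for *Aqp1* and 66.8% for *Kl*, beside a median of 52.4% over all windows.

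All values below are CPM (counts per 1000000 counts of the library, with library sizes normalised by TMM), in the order control replicates 1, 2, 5 and 6 and then morphine replicates 3, 4, 7 and 8. *Ttr*, *Enpp2* and *Calml4* were several times more abundant in the morphine libraries than in the control libraries, and *Otx2* was not. In 8 of the 10 genes each morphine library was above each control library, a pattern that 3.34% of all 18939 genes showed. The exact Poisson 95% intervals of the highest control and the lowest morphine library were apart for 3 of these 8 (*Ttr*, *Enpp2* and *Calml4*) and overlapped for the other 5 (*Folr1*, *Kl*, *Clic6*, *Kcnj13* and *Cldn2*). Since the genes were chosen with this comparison known, neither the count nor the intervals are evidence about them. The intervals cover counting error only, not the spread between libraries. Bulk libraries cannot tell more cells of a type from more RNA per cell.

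**Figure D1:**
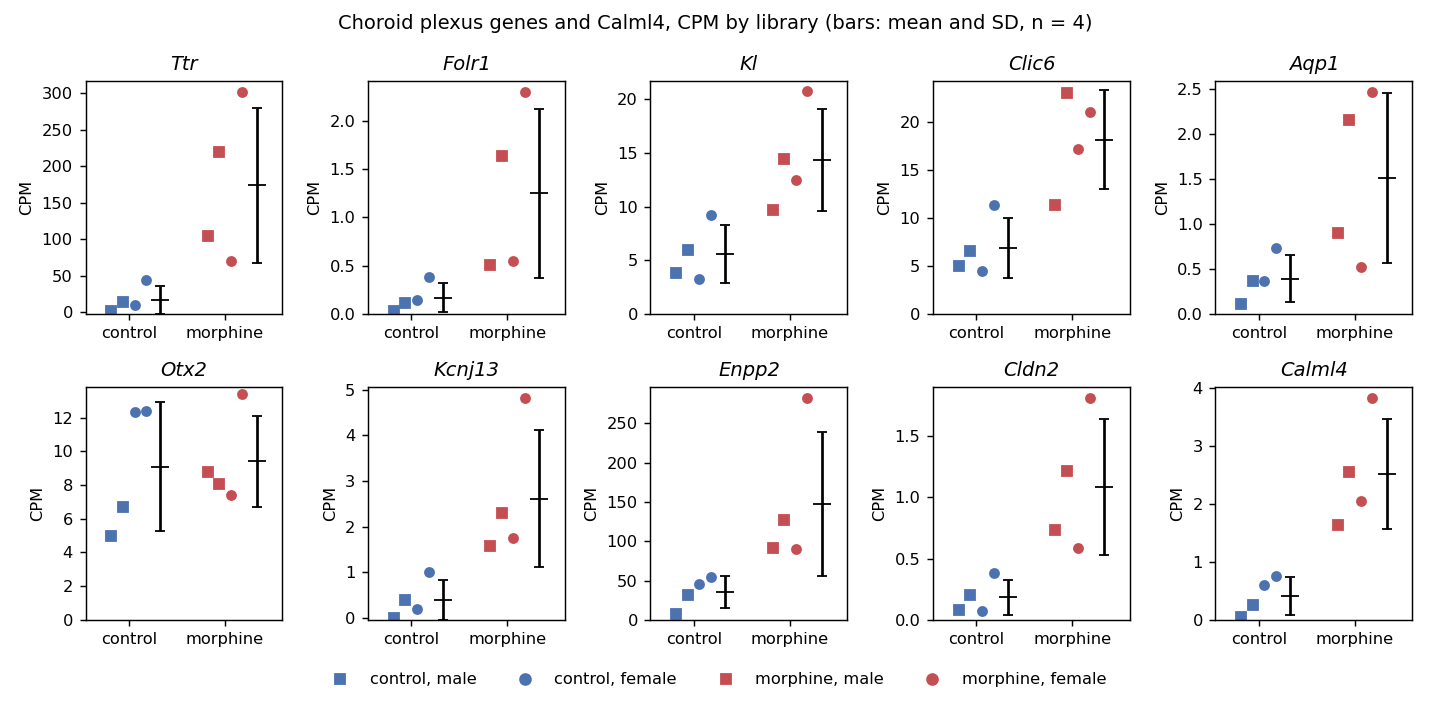
CPM of the 10 genes in each library, by group (squares male, circles female; black bars are the mean and SD of 4 libraries; each panel has its own linear axis). Morphine libraries lie above all control libraries in 8 panels, and the groups overlap for *Aqp1* and *Otx2*.

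Among the secreted and membrane-bound proteins, *Ttr* (transthyretin, the carrier of thyroid hormone and retinol-binding protein in cerebrospinal fluid, at chr18:20664209-20674326) was at 0.949, 13.4, 9.25 and 44.5 CPM in the control libraries and at 105.03, 219, 69.9 and 302 CPM in the morphine libraries. The groups did not overlap, but the control libraries alone spanned from 37 counts in replicate 1 to 1640 counts in replicate 6. Means were 17.0 ± 19.0 CPM in control and 174 ± 106 CPM in morphine (SD, n = 4) and the log2 fold change was 3.36 (standard error, SE, 0.82). Without control replicate 6 it was 4.45 and without control replicate 1 it was 2.95.

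*Enpp2* encodes autotaxin, a secreted enzyme that makes lysophosphatidic acid and is also made by oligodendrocytes. It was at 7.64, 32.1, 45.9 and 54.3 CPM in control and at 91.5, 127, 89.7 and 282 CPM in morphine. Its lowest morphine library was 1 of the females, replicate 7, and its highest the other female, replicate 8. The log2 fold change was 2.08 (SE 0.52). A second transcript of *Enpp2* in the table had 87.5% to 90.9% of the counts of the first in every library. It is not stated whether the rows share reads, so they may not be separate measurements.

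*Kl* encodes klotho, the coreceptor for a hormone of phosphate balance, which is shed into cerebrospinal fluid. It was at 3.79, 5.97, 3.23 and 9.18 CPM in control and at 9.64, 14.4, 12.5 and 20.8 CPM in morphine. The groups were separated only narrowly, by control replicate 6 and morphine replicate 3, with a log2 fold change of 1.37 (SE 0.32).

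Among the transporters and channels, *Folr1* (the folate receptor that carries folate across the epithelium) was found in 1, 5, 6 and 14 counts in control and 18, 54, 17 and 112 counts in morphine, or 0.165 ± 0.152 and 1.25 ± 0.875 CPM. With so few counts its fold change carries a large counting error, and the log2 fold change was 2.94 (SE 0.66), or 3.66 without control replicate 6 and 2.44 without morphine replicate 8. *Aqp1*, the water channel of the apical membrane, was at 0.103, 0.360, 0.359 and 0.733 CPM in control and at 0.899, 2.15, 0.520 and 2.47 CPM in morphine. Morphine replicate 7, at 0.520 CPM, was below control replicate 6, so the groups overlapped. The log2 fold change of *Aqp1* was 1.97 (SE 0.57).

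*Kcnj13* encodes the potassium channel Kir7.1 of the apical membrane. It had 0, 17, 8 and 37 counts in control and 56, 76, 54 and 234 counts in morphine. The 0 in control replicate 1 allows up to 3 counts, or 0.0769 CPM (a one-sided limit at about 95%, for counting error alone); the exact two-sided 95% Poisson interval reaches 3.69 counts. Means were 0.395 ± 0.436 and 2.61 ± 1.499 CPM, with a log2 fold change of 2.74 (SE 0.71) that was 3.70 without control replicate 6. *Clic6*, of the chloride intracellular channel family, was at 5.03, 6.51, 4.49 and 11.3 CPM in control and 11.4, 23.1, 17.1 and 21.0 CPM in morphine. Control replicate 6 (11.348 CPM, 418 counts) and morphine replicate 3 (11.355 CPM, 404 counts) were equal within counting error, with exact Poisson 95% intervals of 10.3 to 12.5 CPM for each. Alone among the 10 genes it was highest in morphine replicate 4, and its log2 fold change was 1.41 (SE 0.30).

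*Cldn2* (claudin-2, which forms the pores for cations and water in the tight junctions of leaky epithelia) had 3, 9, 3 and 14 counts in control and 26, 40, 18 and 88 counts in morphine. This was 0.183 ± 0.145 CPM in control and 1.08 ± 0.552 CPM in morphine, a log2 fold change of 2.58 (SE 0.53).

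*Otx2* encodes a homeodomain transcription factor needed to form and keep the choroid plexus epithelium. It stood apart from the other 9 genes, at 4.97, 6.69, 12.3 and 12.4 CPM in control and at 8.77, 8.05, 7.40 and 13.4 CPM in morphine. The groups overlapped widely, with means of 9.09 ± 3.83 and 9.40 ± 2.71 CPM and a log2 fold change of 0.052 (SE 0.29). In control the libraries labelled female were above the male libraries, and in morphine the highest and the lowest were both female. The sign of its fold change was not stable, at -0.17 without control replicate 1 and 0.22 without control replicate 5.

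*Calml4*, whose product is known as a light chain of an unconventional myosin in microvilli, had 2, 11, 25 and 28 counts in control and 58, 84, 63 and 186 counts in morphine. In CPM it was at 0.0513, 0.248, 0.598 and 0.760 in control and at 1.63, 2.54, 2.05 and 3.82 in morphine. The lowest morphine library was above the highest control library, and within control the libraries labelled female were above the male libraries. Means were 0.414 ± 0.323 CPM and 2.51 ± 0.951 CPM (SD, n = 4), with a log2 fold change of 2.61 (SE 0.53). The 2 counts in control replicate 1 have an exact Poisson 95% interval of 0.242 to 7.22 counts, which covers counting error only. Its second transcript had 90.9% to 100% of the counts of the first, and may likewise hold the same reads.

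Over the 10 genes the median log2 fold change was 2.33, beside 0.0088 over all genes, and 2.26 without control replicate 5. All 10 passed edgeR's filter on low counts (filterByExpr), and 5 had at least 10 counts in every library. Per length, the abundance in control ranged from 0.0601 RPKM (CPM divided by the transcript length in kilobases) for *Cldn2* to 14.4 RPKM for *Ttr*, and *Enpp2* (11.3 RPKM) and *Otx2* (5.24 RPKM) followed *Ttr*. In morphine *Ttr* was at 147 RPKM and *Enpp2* at 47.7 RPKM, while *Otx2* was at 5.41 RPKM, *Clic6* at 4.83 RPKM, *Calml4* at 2.91 RPKM and *Kl* at 2.80 RPKM. With an SD larger than the mean for *Ttr* in control, the order of *Ttr* and *Enpp2* in control was within the spread of the libraries.

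Calmodulin, the small calcium sensor that *Calml4* resembles, was at far higher levels. *Calm2* was at 1366 ± 22.9 CPM in control and 1509 ± 163 CPM in morphine, and *Calm3* at 2560 ± 179 and 2658 ± 239 CPM. The log2 fold changes of these 2 genes were 0.14 and 0.054, with adjusted P values of 0.630 and 0.877 (edgeR's quasi-likelihood test). *Calml3* was close to absent, at means of 0.013 CPM in control and 0.023 CPM in morphine. Per length, *Calml4* in morphine (2.91 RPKM) was a small fraction of *Calm2* (1253 RPKM).

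The 10 genes together summed to 22.6, 65.9, 76.6 and 135 CPM in control and to 232, 402, 202 and 655 CPM in morphine. *Ttr* and *Enpp2* made up 37.9% of this sum in control replicate 1 and 89.2% in morphine replicate 8. Control replicate 1 was the lowest library for 7 genes and control replicate 5 for the other 3 (*Kl*, *Clic6* and *Cldn2*), while morphine replicate 8 was the highest for 9. The highest library was above the lowest by 318-fold for *Ttr*, 89.8-fold for *Folr1*, 74.6-fold for *Calml4*, 37.0-fold for *Enpp2*, 25.2-fold for *Cldn2* and 24.1-fold for *Aqp1*. For *Kl*, *Clic6* and *Otx2* it was 6.45-fold, 5.13-fold and 2.69-fold. The folds of *Folr1* and *Calml4* rest on 1 and 2 counts in control replicate 1, and *Kcnj13*, at 0 there, has none.

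If the genes varied in proportion, their counts per *Ttr* count would be the same in every library. Per 1000 *Ttr* counts, *Folr1* was at 27.0, 8.42, 15.5 and 8.54 in control and at 4.82, 7.45, 7.90 and 7.63 in morphine. *Calml4* was at 54.1, 18.5, 64.6 and 17.1 in control and at 15.5, 11.6, 29.3 and 12.7 in morphine. Both ratios were highest in libraries with few *Ttr* counts, and those of *Folr1* and *Calml4* in control replicate 1 rest on 1 and 2 counts. As *Ttr* is the divisor and varied most, the ratio of a gene that varies less tends to fall as *Ttr* rises.

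Leaving out control replicate 1, the ratio to *Ttr* ranged over 2.73-fold for *Kcnj13*, 2.75-fold for *Cldn2*, 3.22-fold for *Folr1*, 5.21-fold for *Aqp1* and 5.57-fold for *Calml4*. It ranged over 6.79-fold for *Kl*, 6.99-fold for *Clic6*, 8.56-fold for *Enpp2* and 36.3-fold for *Otx2*. With control replicate 1 the order differed: the range was 5.57-fold for *Calml4*, 5.61-fold for *Folr1*, 13.9-fold for *Enpp2*, 14.5-fold for *Aqp1*, 14.7-fold for *Cldn2* and 60.9-fold to 143-fold for *Kl*, *Clic6* and *Otx2*, and *Kcnj13* was at 0 there. *Otx2* had the widest range of the 8 genes with a defined ratio in every library. *Otx2* fell from 5243 counts per 1000 *Ttr* counts in control replicate 1 to 44.3 in morphine replicate 8.

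**Figure D2:**
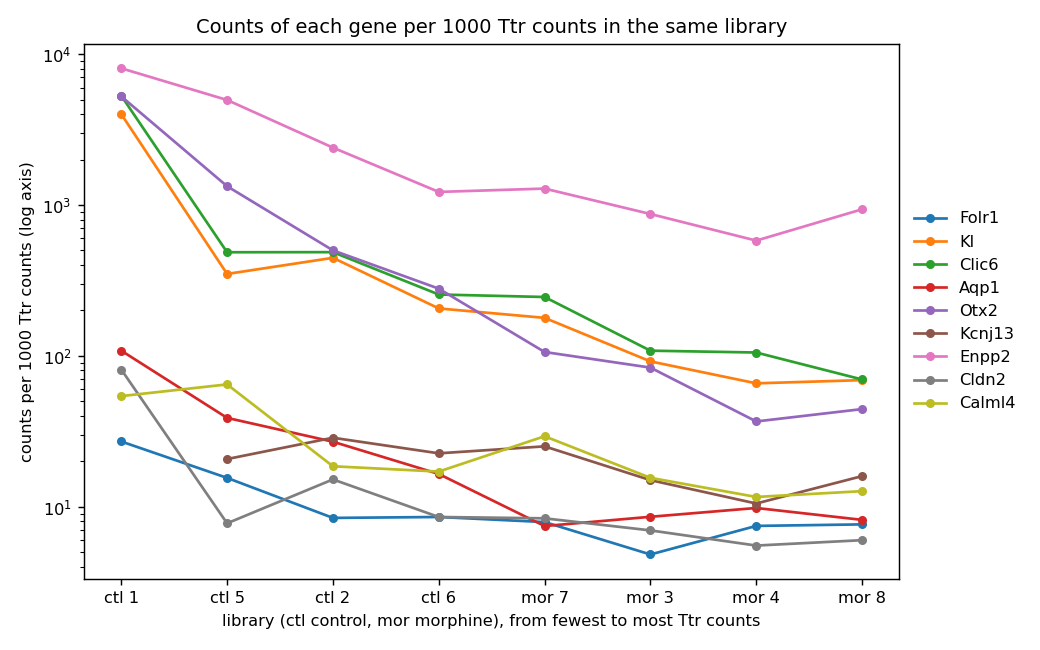
Counts of 9 genes per 1000 *Ttr* counts (log axis) in each library, with libraries from fewest to most *Ttr* counts; the point of *Kcnj13* in control replicate 1, at 0 counts, cannot be drawn. The lines of *Folr1*, *Kcnj13* and *Cldn2* are the flattest beyond control replicate 1, and that of *Otx2* is the steepest.

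Co-variation was measured as Pearson's r of log2 CPM over the 8 libraries, which share the difference between the groups, and again on deviations from the mean of each group. Over the 45 pairs the median r was 0.925, from 0.277 (*Clic6* and *Otx2*) to 0.990 (*Ttr* and *Kcnj13*), and the median of Spearman's rho was 0.929. Without *Otx2* (36 pairs) the median r was 0.938, with a lowest value of 0.824. Within groups the median of these 36 pairs was 0.840, from 0.504 to 0.974.

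Without control replicate 1 and morphine replicate 8, the libraries with the lowest and the highest sum, the median r of the 36 pairs was 0.907, from 0.739 to 0.987. The 9 pairs with *Otx2* had a median of 0.546 over all libraries and 0.742 within groups, but -0.27 without these 2 libraries. The values of *Otx2* depended on single libraries, with a median of 0.098 without control replicate 1, 0.40 without morphine replicate 8 and 0.76 without control replicate 5, the library with Y-linked counts. Without control replicates 1 and 5 the median was 0.51, and without all 3 libraries 0.12. These removals were chosen after the values were seen.

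Within groups, the genes fell unevenly. *Kl* and *Cldn2* had an r of 0.94 and *Kl* and *Clic6* 0.92, while *Calml4* with *Kl*, *Clic6* and *Cldn2* had 0.52, 0.53 and 0.57. *Calml4* was closest to *Enpp2* (0.95), *Otx2* (0.92) and *Ttr* (0.89), and *Folr1* was closest to *Aqp1* (0.96). Over all 8 libraries *Calml4* had 0.60 with *Otx2*, below its 0.85, 0.87 and 0.88 with *Kl*, *Clic6* and *Cldn2*. Without control replicate 1 and morphine replicate 8 these were -0.10 with *Otx2* and 0.75, 0.84 and 0.81. These coefficients rest on 8 libraries and carry no P value.

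**Figure D3:**
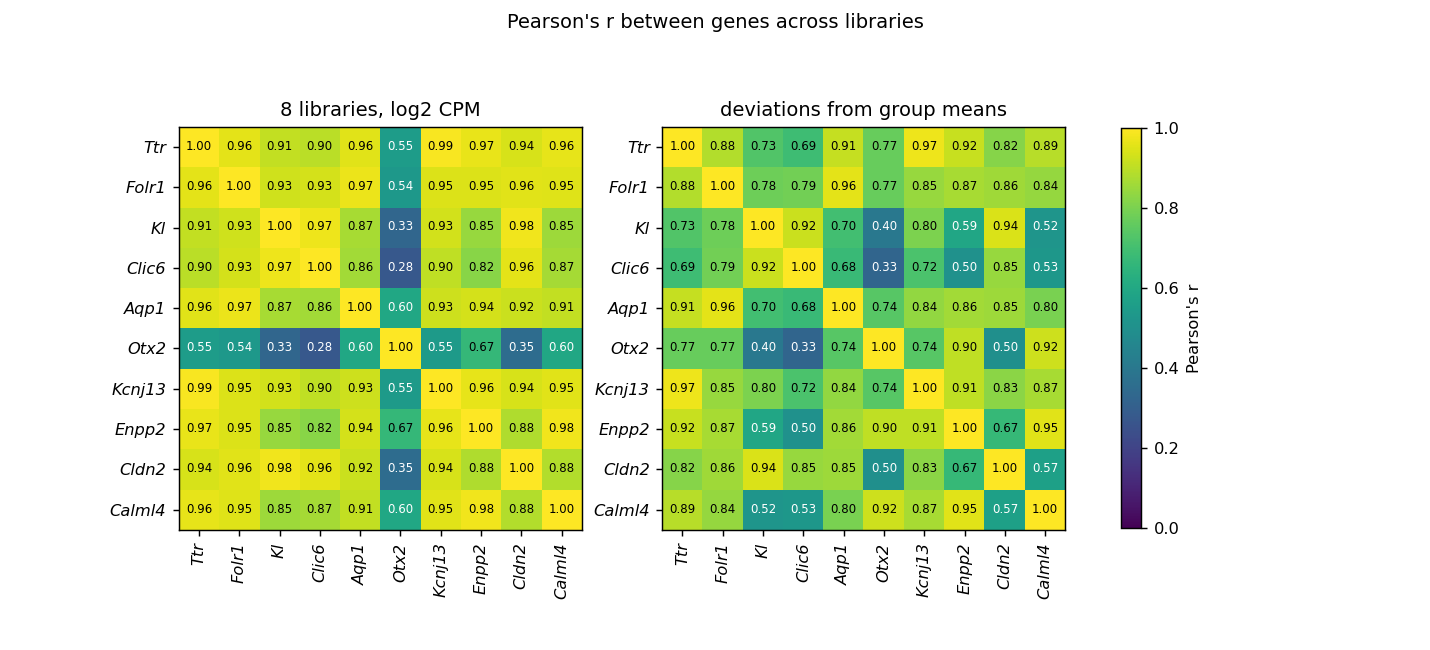
Pearson's r between each pair of the 10 genes, from log2 CPM over 8 libraries (left) and from deviations from the mean of each group (right); color runs from 0 to 1. *Otx2* has the lowest values on the left (0.28 to 0.67), and on the right *Calml4* is nearer to *Enpp2* and *Otx2* than to *Kl*, *Clic6* and *Cldn2*. On the left *Calml4* is farther from *Otx2* (0.60) than from *Kl*, *Clic6* and *Cldn2* (0.85, 0.87 and 0.88).

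Other cell types were followed by the summed CPM of marker lists, also written with earlier results of these libraries known. The oligodendrocyte list (10 of 10 genes measured, among them *Mbp*) was at 130, 492, 1315 and 830 CPM in control and at 616, 884, 874 and 1654 CPM in morphine. Control replicate 1 was the lowest and morphine replicate 8 the highest for this list too, as for most of the 10 genes. None of the 10 oligodendrocyte genes passed the test (0 called with edgeR, 0 at an unadjusted P under 0.05 and 0 with DESeq2, beside 0.164%, 6.79% and 1.71% of all genes higher). All 10 had a log2 fold change above 0, with a median of 0.65.

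With the log2 sum of the oligodendrocyte list, *Enpp2* had an r of 0.86 and a within-group r of 0.94, *Calml4* 0.82 and 0.96, and *Otx2* 0.86 and 0.90. *Kl* (0.52 and 0.35), *Clic6* (0.51 and 0.32) and *Cldn2* (0.54 and 0.39) followed it less, and *Ttr* (0.76 and 0.78) was between. The part of oligodendrocyte RNA in the values of *Enpp2*, *Otx2* and *Calml4* was not tested.

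**Figure D4:**
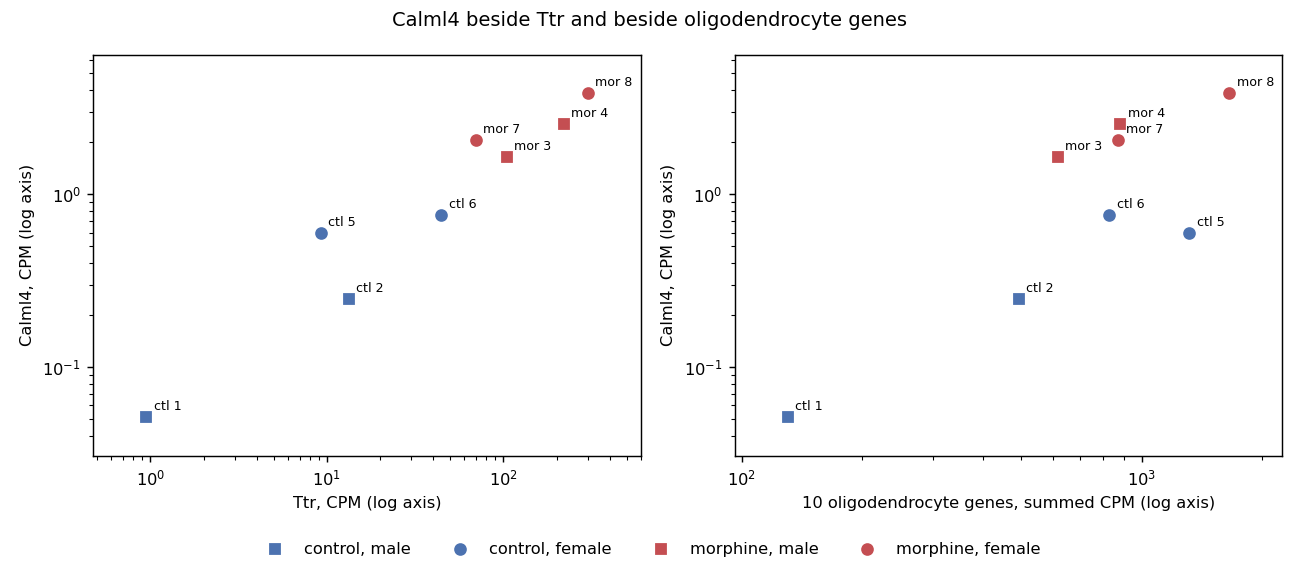
*Calml4* (CPM) against *Ttr* (CPM, left) and against the summed CPM of 10 oligodendrocyte genes (right), 1 point per library, all axes log. On the left the libraries lie near 1 rising line; on the right control replicate 1 is lowest and morphine replicate 8 highest on both axes, and control replicate 5 has the second highest sum with 0.598 CPM of *Calml4*.

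Telencephalic pyramidal neuron genes (9 of 10 measured, led by *Camk2a*, 1089 CPM, and *Wipf3*) summed to 1046 to 1533 CPM in control and 1360 to 2791 CPM in morphine. Of these 9, 1 was called higher with edgeR (*Wipf3*), 7 were higher at an unadjusted P under 0.05 and 4 were called with DESeq2, and in 3 each morphine library was above each control library. Over all genes these shares were 0.164%, 6.79%, 1.71% and 3.34%, and the 9 genes had a median log2 fold change of 1.15. As this list was written with earlier results known, the counts are no evidence about it. *Clic6* had an r of 0.93 with this list (0.79 within groups), *Calml4* 0.79 (0.35) and *Otx2* 0.17 (0.13). Whether tissue outside the thalamus contributed to the 10 genes was not tested.

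Ependymal and ciliated cell genes, whose cells line the ventricles beside the choroid plexus (9 of 12 measured, led by *Foxj1* at 5.08 CPM and *Rsph1*), summed to 8.69 to 10.6 CPM in control and 9.05 to 15.9 CPM in morphine. Their median log2 fold change was 0.40 and 0 were called with edgeR or DESeq2, with 2 of 9 higher at an unadjusted P under 0.05, beside 6.79% of all genes. With the log2 sum of these genes r was 0.77 for *Kl*, 0.74 for *Clic6*, 0.79 for *Cldn2*, 0.84 for *Folr1*, 0.85 for *Aqp1* and 0.66 for *Calml4*. It was 0.73 for *Enpp2*, 0.71 for *Ttr*, 0.69 for *Kcnj13* and lowest for *Otx2*, at 0.49. With the astrocyte list r lay between -0.19 and 0.15 for all 10 genes. The stroma of the choroid plexus was followed by fibroblast genes (10 measured), at 1.97 to 6.44 CPM in control and 4.71 to 10.4 CPM in morphine (median log2 fold change 0.15). Of them 0 were called with edgeR, 3 of 10 were higher at an unadjusted P under 0.05 (6.79% of all genes), and 1 was called with DESeq2 (1.71% of all genes). Endothelial genes, led by *Plvap* of fenestrated vessels, were at 15.9 to 29.8 and 16.9 to 25.3 CPM, and border macrophage genes at 1.91 to 2.48 and 1.62 to 2.39 CPM, so that both lists overlapped between the groups.

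Markers of the purified cells were present throughout. Thalamic neuron genes, led by *Tcf7l2* and *Calb2*, summed to 2393 to 3038 CPM in control and 1805 to 3151 CPM in morphine, with all 10 log2 fold changes below 0 and a median of -0.24. *Oprm1* was at 16.8 to 32.3 CPM in control and at 14.0 to 18.4 CPM in morphine (log2 fold change -0.62, SE 0.19). Medial habenula genes were at 86.1 to 123 and 85.1 to 120 CPM, astrocyte genes at 212 to 366 and 241 to 387 CPM (median log2 fold change 0.46, with 8 of 10 above 0, and 2 higher at an unadjusted P under 0.05, beside 6.79% of all genes), and microglia genes at 6.79 to 16.0 and 7.53 to 15.05 CPM.

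A further 24 genes of the choroid plexus epithelium, a list also written with earlier results of these libraries known, were tested between morphine and control. With edgeR 0 of the 24 were called, where 0.164% of all genes were called higher. At an unadjusted P under 0.05, 13 were higher and 0 lower, beside 6.79% of all genes higher. DESeq2 called 7 higher and 0 lower (*Car12*, *Cdkn1c*, *Slc4a5*, *Abca4*, *Kcne2*, *F5* and *Krt18*), beside 1.71% of all genes higher. The median log2 fold change of the 24 genes was 0.98, and 21 were above 0. Summed, they were at 56.6 to 115 CPM in control and 81.1 to 141 CPM in morphine, so the groups overlapped in the sum of this list, unlike in that of the 10 genes. The largest parts of this sum were *Ace* and *Igf2*, at means of 18.5 and 16.7 CPM. In 6 of the 24 each morphine library was above each control library, beside 3.34% of all genes. Since the list was written with earlier results known, none of these counts is evidence about it. Genes that vary together are not separate observations.

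The 6 with the highest mean did not move alike. *Car12*, a carbonic anhydrase, was at 3.02 ± 0.939 CPM in control and 9.61 ± 5.90 CPM in morphine (log2 fold change 1.67, adjusted P = 0.119 with edgeR), and *Cdkn1c*, a cell cycle inhibitor, at 1.75 ± 0.560 and 4.06 ± 1.41 CPM (1.22, adjusted P = 0.130). *Ace*, the angiotensin-converting enzyme, was at 15.8 ± 3.60 and 21.3 ± 7.86 CPM (0.43, adjusted P = 0.512). *Spint2*, a protease inhibitor, was at 12.7 ± 4.52 and 13.2 ± 1.89 CPM (0.062, adjusted P = 0.935).

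*Prlr*, the prolactin receptor, was at 17.0 ± 4.60 CPM in control and 12.8 ± 1.98 CPM in morphine (log2 fold change -0.41, adjusted P = 0.431). *Igf2*, a growth factor of the choroid plexus and the meninges, was at 4.97, 39.03, 8.22 and 28.9 CPM in control and at 12.6, 15.8, 7.79 and 16.1 CPM in morphine (-0.63, adjusted P = 0.677). Its highest libraries were thus controls, among them replicate 2, in which *Ttr* was at 13.4 CPM. *Lmx1a*, a transcription factor of the roof plate, was the remaining gene with a log2 fold change below 0 (-0.039).

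**Figure D5:**
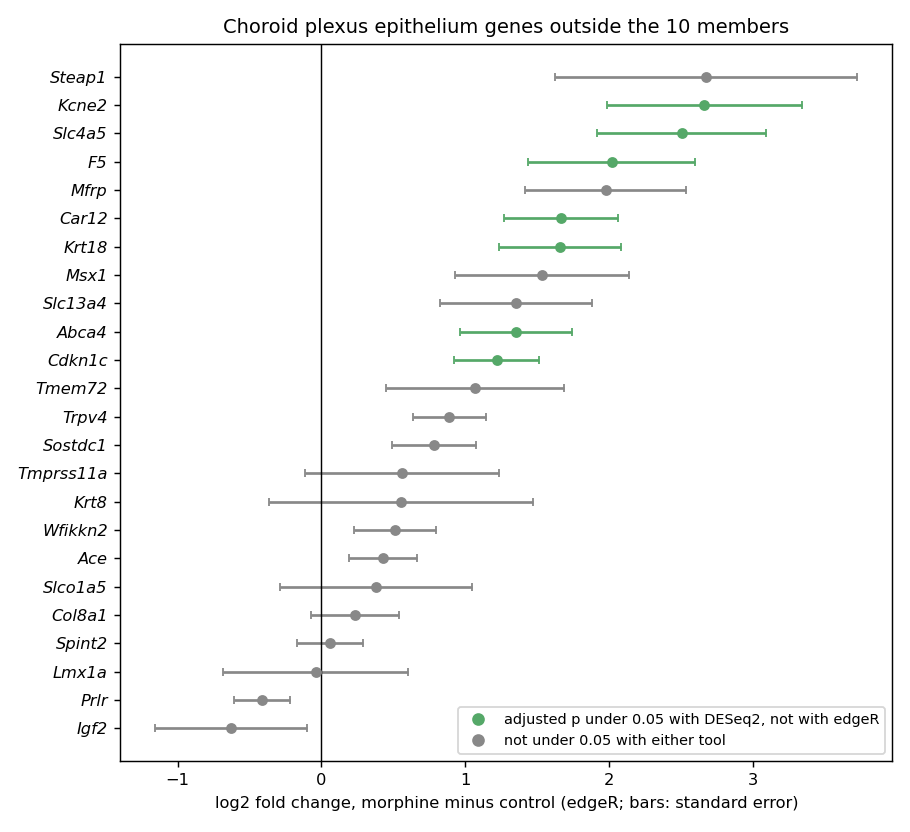
Log2 fold change (morphine minus control, edgeR) of 24 further choroid plexus epithelium genes, bars showing the standard error; green marks the 7 genes called by DESeq2. The points run from -0.63 (*Igf2*) to 2.67 (*Steap1*), with 21 above 0.

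The genes most like the 10 were ranked by Pearson's r with their mean standardised log2 CPM over 8 libraries, among 14629 genes with at least 10 counts in at least 4 libraries. The highest 12 were *Slc4a5* (0.990), *Fam163b* (0.990), *Krt18* (0.989), *1500015O10Rik* (0.985), *Ifi27l1* (0.985), *Golm1* (0.985), *Ism1* (0.984), *C1qtnf5* and *Mfrp* (0.979 each), *Ccdc135* (0.979), *F5* (0.979) and *1110059M19Rik* (0.977). *Slc4a5* (a bicarbonate transporter), *Krt18*, *Mfrp* and *F5* are also in the list of 24. *C1qtnf5* and *Mfrp* share a locus and had the same counts in every library, so they are 1 measurement.

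Each of the 12 was lowest in control replicate 1 and highest in morphine replicate 8, as was the mean by which they were picked. *Slc4a5* was at 0.595 ± 0.521 CPM in control and 3.34 ± 1.96 CPM in morphine, and *1500015O10Rik* (RefSeq symbol *Ecrg4*) at 0.0891 ± 0.0915 and 0.854 ± 0.591 CPM. *Fam163b*, which is not in a list used here, was at a much higher level with a smaller difference, 108 ± 26.4 and 191 ± 28.7 CPM (log2 fold change 0.82).

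The sex labels are not part of how the genes were chosen, but their variation between these same libraries was known, so the values by sex are a description without a test. With condition in the model, all 10 genes had a positive log2 fold change of female over male. *Otx2*, the gene with the smallest standard error, was at 11.4 ± 2.69 CPM in the libraries labelled female and 7.12 ± 1.67 CPM in the male libraries (SD, n = 4), a log2 fold change of 0.70 (SE 0.22). It was 1.05 (SE 0.40) for *Enpp2* and 1.10 (SE 0.42) for *Calml4*. Similar values with wider errors were 1.07 (SE 0.61) for *Kcnj13*, 1.01 (SE 0.71) for *Ttr* and 0.87 (SE 0.59) for *Folr1*. The smallest were 0.49 (SE 0.53) for *Aqp1*, 0.43 (SE 0.50) for *Cldn2*, 0.41 (SE 0.29) for *Kl* and 0.30 (SE 0.27) for *Clic6*. Without control replicate 5, the female-labelled library with Y-linked counts, all 10 were still above 0, with 0.62 for *Otx2*, 1.03 for *Enpp2* and 1.04 for *Calml4*. The 10 genes vary together, so their common sign is not 10 separate observations.

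The difference between morphine and control was also set side by side in the sexes, by an interaction term and again without a test. For *Calml4* the log2 fold change in females minus that in males was -1.62 (SE 0.77), for *Ttr* -1.70 (SE 1.32) and for *Otx2* -0.77 (SE 0.38). With 0.5 CPM added to each mean, the log2 fold change of *Calml4* was 1.99 in males and 1.54 in females, which are closer. Its male controls held 2 and 11 counts, so the size of the difference depended on the scale. The interaction term was below 0 for 9 of the 10 genes, and for all 10 without control replicate 5, where that of *Calml4* was -1.79 (SE 0.85). With 0.5 CPM added, females were above males for *Kl* (1.36 and 1.22) and *Cldn2* (1.22 and 1.20). They were slightly below for *Kcnj13* (1.78 and 1.82) and *Folr1* (1.34 and 1.46), and the remaining genes were also below. Standard errors of the interaction term over all libraries ran from 0.38 (*Otx2*) to 1.32 (*Ttr*).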

How the data were processed

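RNA of cells expressing mu-opioid receptors was purified by TRAP from 8 pooled samples, and condition, sex and replicate were taken from the labels. The authors deposited whole-number read counts per RefSeq transcript (24488 transcripts, 18939 genes), which are not normalized. Quantification with Salmon, tximport and DESeq2 on mm10 is described in the methods of the study, and the tool behind this table is not given in the sources used here. The plan had assumed 1 row per gene. For genes with several transcripts, the row with the most counts over all libraries was kept. All 8 count columns were mapped, with 0 columns left without a sample.

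The members and all gene lists were chosen with earlier results of these data known. Named are the 10 members, the called genes of the list of 24 (with none called, the 6 with the highest mean CPM), the 1 or 2 most abundant genes of other lists, the 12 genes most like the members and the calmodulins. Any others were chosen after their values were seen. Some genes that this rule names are not reported here.

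CPM used TMM-normalized library sizes, log2 CPM a prior count of 2, and RPKM the GENCODE vM21 length of the transcript. Coordinates were found for 18844 genes and lengths for 18497. All genes with a count above 0 were tested with edgeR 4.0.16 (R 4.3.3, glmQLFit and glmQLFTest), condition only, and P values were adjusted by Benjamini-Hochberg over all genes (called: adjusted P under 0.05). Sex (with condition in the model) and sex by condition were fitted in the same way; the planned tests of the 10 genes between the sexes are not given, since their variation between libraries was known. The scripts were tested on simulated data. Alternatives were DESeq2 1.42.0, RLE size factors, filterByExpr, sex in the model, the sum over transcripts and each library left out in turn. The sum may count reads shared by transcripts more than once. Reads are not marked as PCR copies, so counting intervals cover counting error only. Each library is a separate pool of mice. No sequencing batch is given in the sources used here.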

Additional observations from a re-analysis of the deposited data

How the results depend on the processing

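The fold changes of the 10 genes under DESeq2, RLE size factors, sex in the model, the sum over transcripts and each library left out (120 values) changed sign in 3 cases, all of them *Otx2* with a library left out. The fold moved by over 1.5 times for *Ttr*, *Kcnj13* and *Folr1*, to log2 fold changes of 4.45, 3.70 and 3.66, each without control replicate 6. Their median log2 fold change was 1.91 to 2.73 with a library left out, and the median pairwise r was 0.892 to 0.956. Leaving out a library gave 2.23 to 3.03 for *Calml4* and 1.56 to 2.35 for *Enpp2*.

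The count of called genes depended on the tool more than the fold changes did. Between morphine and control 37 genes were called (31 higher), against 502 with DESeq2 (324 higher), 14 with filterByExpr, 110 with sex in the model, 22 with the sum over transcripts and 0 to 77 with 1 library left out (0 without morphine replicate 4 or 8, with 1696 and 1664 genes at an unadjusted P under 0.05, and 1 without control replicate 1). Of the 24 further choroid plexus genes 0 were called, against 7 with DESeq2 and 0 to 2 with a library left out (*Kcne2* and *Slc4a5* without control replicate 6, *Car12* without morphine replicate 3). Between the sexes 1 gene was called, *Xist*, against 21 with DESeq2, 0 with filterByExpr (505 at an unadjusted P under 0.05) and 0 to 5 with a library left out (5 without control replicate 5). For sex by condition 0 were called (325 at an unadjusted P under 0.05), against 4 with DESeq2 and 0 to 5 with a library left out (5 without control replicate 6). The cause of these differences was not tested. No paired analysis was possible because the groups share no replicate numbers. *Folr1*, *Cldn2*, *Aqp1*, *Kcnj13* and *Calml4* had fewer than 10 counts in at least 1 control library, which limits their precision.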
